A study of Mus musculus with 6 samples.

Results

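The heat shock chaperones of the cytosol and of the mitochondrial matrix were examined as a set of 10 genes: the HSP90 genes Hsp90aa1 and Hsp90ab1, the HSP70 genes Hspa8, Hspa1a and Hspa1b, the HSP110 gene Hsph1, the J-domain (HSP40) genes Dnaja1 and Dnajb1, and the mitochondrial chaperonin genes Hspd1 and Hspe1. They were taken by name from the 56636 genes of the deposited table, and all 10 names were found there. Levels are in TPM, a gene's share of a library's transcripts after division by transcript length, scaled so that every library has the same total. A mean of 1 TPM or more over the 6 libraries was reached by 12092 genes, which were tested, and by 9 of the 10 chaperones. Hspa1a stayed under that level. RNA was sequenced in bulk from RAW264.7, a mouse macrophage-like line that grew out of a virus-induced tumour, with a wild-type genotype in the labels. The groups were cells given 25-HC for 24 h (n = 3 libraries) and cells given vehicle for 24 h (n = 3 libraries), both kept in the same medium with serum. The series title places the libraries in a study of a microRNA secreted by cancer cells and of cholesterol balance, and the labels used here spell out neither the name nor the dose of 25-HC. The labels do not say whether the libraries came from separate cultures, and every p-value therefore rests on the spread among the libraries as sequenced, part or all of which may be technical.

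Chaperones of these families bind proteins that are not folded and let them fold, move between compartments or pass to degradation. HSP70 proteins bind short greasy stretches in a cycle driven by ATP, in which J-domain proteins bring the substrate and HSP110 proteins exchange the nucleotide. HSP90 then acts on nearly folded clients such as kinases and steroid receptors, and the mitochondrial chaperonin encloses its substrate in a chamber. Some members are made at all times and others mainly under stress, when the factor HSF1 binds heat shock elements in their promoters. In macrophages, HSP90 and HSP70 proteins are also known to take part in signalling from pattern recognition receptors.

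The promoters are shown because HSF1 binds repeated units of nGAAn in alternating orientation, and because 2 of the members are near copies of each other. RefSeq start sites of mouse build GRCm38.p6, matched by symbol, gave 12 windows of 300 bases (250 before and 50 after the start) for 7 of the 10 members. The authors' build was another, GRCm39. Hsp90aa1, Hsp90ab1 and Hspa8 are named only. On both strands, the 3-unit forms searched were GAANNTTCNNGAA and TTCNNGAANNTTC, which are each other's reverse complement. The 2-unit forms were GAANNTTC and TTCNNGAA, each its own reverse complement, and every 3-unit match also holds 2-unit matches. The capitals below mark the matched letters, read 5′ to 3′ along the strand of the gene, at chr17:34972157-34972406 (minus strand) for Hspa1a, chr17:34959239-34959488 (minus) for Hspa1b, chr1:55088053-55088082 (plus) for Hspe1, chr5:149636279-149636308 (minus) for Hsph1 and chr4:40722333-40722362 (plus) for Dnaja1. The first pair are the whole 250 bases before the start, and the other stretches hold 30 bases around a match.
Hspa1a: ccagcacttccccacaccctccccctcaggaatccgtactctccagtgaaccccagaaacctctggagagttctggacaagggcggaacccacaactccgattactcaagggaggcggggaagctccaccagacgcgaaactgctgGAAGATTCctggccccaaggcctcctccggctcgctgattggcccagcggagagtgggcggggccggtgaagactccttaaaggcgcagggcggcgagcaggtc
Hspa1b: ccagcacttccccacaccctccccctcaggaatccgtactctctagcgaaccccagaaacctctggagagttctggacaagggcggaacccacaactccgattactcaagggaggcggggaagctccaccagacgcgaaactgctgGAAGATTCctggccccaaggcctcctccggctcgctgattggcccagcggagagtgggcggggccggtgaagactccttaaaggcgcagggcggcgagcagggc
Hspe1: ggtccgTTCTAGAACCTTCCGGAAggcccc
Hsph1: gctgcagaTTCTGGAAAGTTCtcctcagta
Dnaja1: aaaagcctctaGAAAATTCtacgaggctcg
A 3-unit form was found for 3 of the 7 members with a window (Hspd1, Hspe1 and Hsph1), and for 0.603% of the 32851 mouse windows of the same length. A 2-unit form was found for 6 of the 7 members, all but Dnajb1, and for 15.1% of all windows. Members were counted as genes with a match in any of their windows, and the shares are per window. The counts and the shares are therefore not in the same unit. Hspd1 and Hspe1 lie head to head on chromosome 1 and share 1 stretch, 89 bases before the start of Hspe1 and 144 bases before a start of Hspd1 when counted to its far match. In Hspa1a and Hspa1b the match lay 104 bases before the start, and in Dnaja1 124 bases before it. In Hsph1 the 3-unit stretch lay after the start sites, and a separate 2-unit match lay 33 or 54 bases before them. A match describes letters in a window and is neither a bound site nor a cause of the values given here. The Hspa1a and Hspa1b windows differed at 3 of 250 bases, and their coding sequences at 8 of 1926 aligned bases (99.6% identity), so reads cannot be assigned to either gene with certainty.

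The 6 libraries were not alike. Genes at 1 TPM or more numbered 11971 to 12005 in the 25-HC libraries, against 11238, 9492 and 11994 in vehicle 1, 2 and 3. Ribosomal protein transcripts made up 22.8% to 23.1% of all TPM in 25-HC, against 26.8%, 37.4% and 21.0% in vehicle 1, 2 and 3. In vehicle 2 and, less steeply, in vehicle 1, the level relative to 25-HC also depended on transcript length. The median log2 ratio was 0.19 among the shortest sixth of genes and -0.98 among the longest in vehicle 1, -0.10 and -2.57 in vehicle 2, and 0.050 and 0.039 in vehicle 3. Vehicle 2 was below every other library for 73.2% of the genes tested. TPM keeps no record of depth, so sequencing depth is unknown and no counting interval could be given. Of 12 macrophage markers, 11 averaged at least 1 TPM, and their sum was 3897 to 3970 TPM in 25-HC and 2948 to 3821 TPM in vehicle, while Mrc1 was listed at 0 in all libraries. Lymphocyte markers summed to at most 3.63 TPM in 25-HC and 4.77 TPM in vehicle, and neutrophil, fibroblast and epithelial or endothelial markers to at most 2.55 TPM in 25-HC and 2.65 TPM in vehicle. In bulk RNA, fewer cells of a type and less RNA per cell cannot be told apart.

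The chaperone mRNAs ranged widely in level, with Hspa8 and Hsp90ab1 the most abundant on average. Among the 25-HC libraries the levels varied little, apart from the scarce Hspa1a and Hspa1b. None of the 9 tested members passed the test between the groups. Hsp90aa1, the stress-inducible cytosolic HSP90, was the member with the widest gap, 2.43-fold higher on average in 25-HC, and the only member whose libraries did not overlap between the groups. The constitutive chaperones Hspa8 and Hsp90ab1 lay within the range of the vehicle libraries, and so did the chaperonin, HSP110 and J-domain genes. The inducible HSP70 genes Hspa1a and Hspa1b were close to 0 in every library. The test was limma on log2(TPM + 1) over all 12092 genes, adjusted by Benjamini and Hochberg's method, and a gene passed at an adjusted p under 0.05. It called 0 of 9 members (0.00827% of all genes, which is 1 gene), and 1 of 9 had an unadjusted limma p under 0.05, against 11.2% of all genes. Without overlap, 1 of 9 members was higher in 25-HC, against 22.6% of all genes, and 0 were lower, against 8.1%. The median log2 difference was 0.75 over the 9 members and 0.52 over all genes tested. Without vehicle 2 the median of the members turned to -0.048, while that of all genes stayed above 0, at 0.13. Against vehicle 3 alone both turned, to -0.16 over the members and -0.071 over all genes. Without vehicle 2, 1 member was higher without overlap (Hsp90aa1, against 23.6% of all genes) and 3 were lower (Hspa8, Hspa1b and Hspe1, against 16.9%). For Hspe1 the margin was very narrow, 419.01 TPM in 25-HC 2 against 419.65 TPM in vehicle 3. Without vehicle 3, 5 members were higher without overlap (Hsp90aa1, Hsp90ab1, Hspd1, Dnaja1 and Dnajb1, against 59.5% of all genes) and 0 were lower, against 13.2%.

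**Figure D1:**
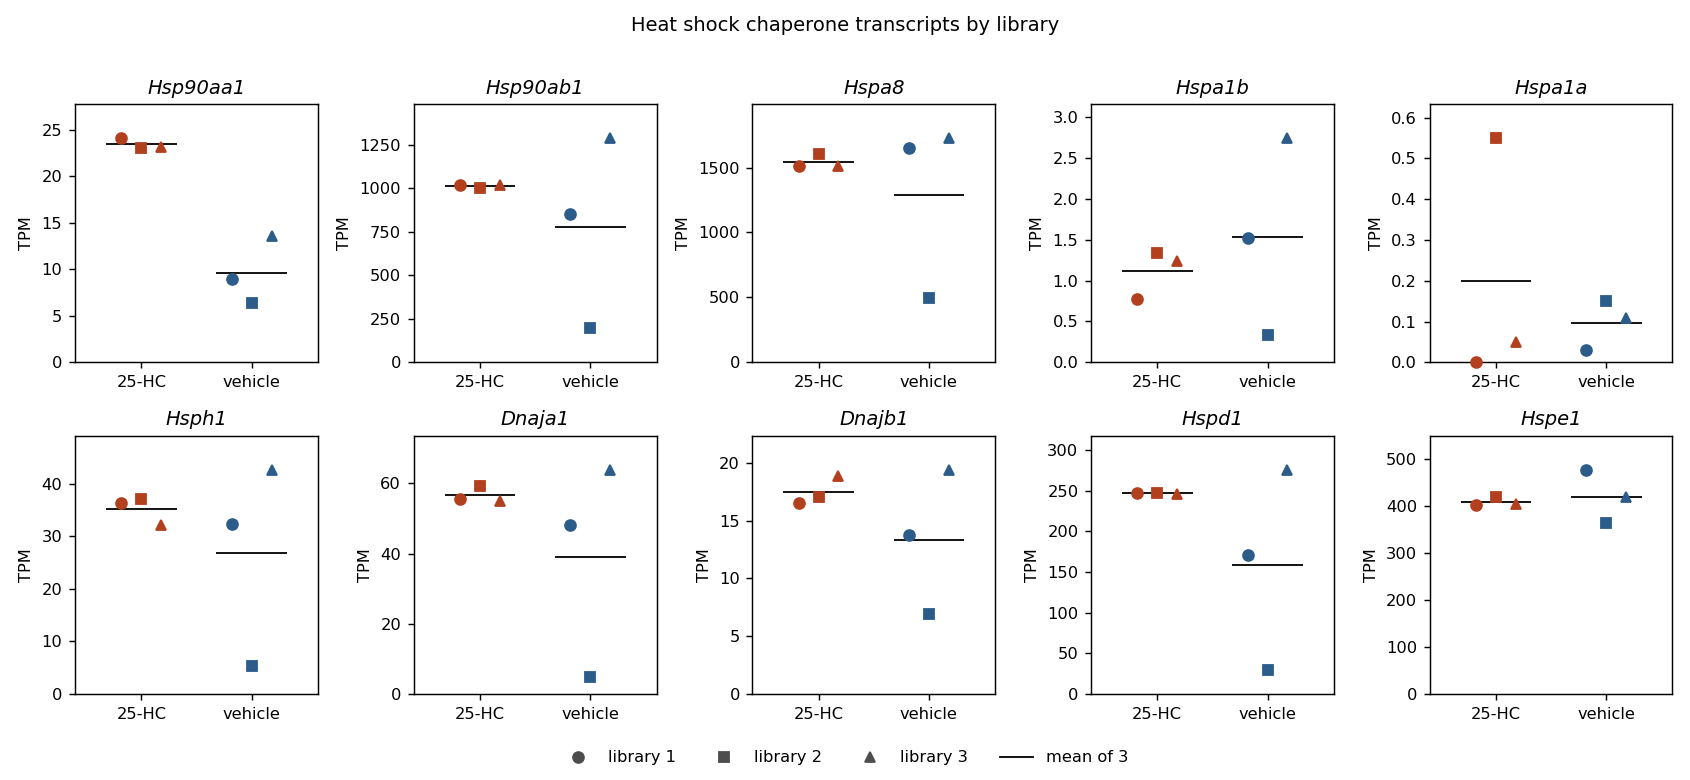
Level of each of the 10 chaperone genes (TPM, 1 panel per gene, linear axis) in the 3 libraries of 25-HC and the 3 of vehicle, with 1 mark per library and a bar at each group's mean. The 25-HC marks of most genes lie close together, vehicle 2 lies lowest for all genes but Hspa1a, and the groups are apart in the panel of Hsp90aa1 alone.

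Summed over the 10 genes, the level was 3317, 3408 and 3311 TPM in the 25-HC libraries, against 3252, 1106 and 3854 TPM in vehicle 1, 2 and 3. The 25-HC sums thus lay between vehicle 1 and vehicle 3. Hspa8 and Hsp90ab1 held 76.4% of the sum in every 25-HC library, and 76.9%, 62.4% and 78.2% in vehicle 1, 2 and 3. By level in TPM, which is per length, all 3 libraries of 25-HC gave the same order, with Hspa8 highest, then Hsp90ab1, Hspe1, Hspd1, Dnaja1, Hsph1, Hsp90aa1, Dnajb1, Hspa1b and Hspa1a. No pair of neighbours in that order overlapped in 25-HC. Vehicle 1 and vehicle 3 kept the order but for Dnajb1 above Hsp90aa1, while the order in vehicle 2 was Hspa8, Hspe1, Hsp90ab1, Hspd1, Dnajb1, Hsp90aa1, Hsph1, Dnaja1, Hspa1b and Hspa1a.

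Hsp90aa1 encodes the HSP90 alpha protein, which cells raise under stress. It stood at 24.1, 23.1 and 23.1 TPM in the 25-HC libraries, against 8.93, 6.39 and 13.6 TPM in vehicle 1, 2 and 3. All 25-HC values were above the highest vehicle value, by 1.73-fold when the 25-HC mean is set against vehicle 3. The means were 23.4 ± 0.593 TPM in 25-HC and 9.64 ± 3.65 TPM in vehicle (SD, n = 3 each). The difference of 1.26 on the log2(TPM + 1) scale (SE 0.33) gave an unadjusted limma p of 0.00761 and did not pass adjustment (limma adjusted p = 0.389). Without vehicle 3 the difference was 1.51 and passed (limma adjusted p = 0.0482), where 5.97% of all genes passed. Without vehicle 2 it was 1.02 (limma adjusted p = 0.127).

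Hsp90ab1, the constitutive HSP90 beta, was far more abundant. Its levels were 1022, 1003 and 1018 TPM in 25-HC, against 852, 198 and 1289 TPM in vehicle 1, 2 and 3. The 25-HC libraries lay between vehicle 1 and vehicle 3, with means of 1014 ± 10.1 TPM in 25-HC and 780 ± 549 TPM in vehicle (SD, n = 3 each). The log2 difference of 0.75 (SE 0.67) was within the spread of the libraries (limma adjusted p = 0.462), and it was -0.048 without vehicle 2. The coding sequences of the HSP90 pair are 76.8% identical, and no near-identical copy of Hsp90ab1 was found among the annotated transcripts. Within a library, Hsp90aa1 stood at 0.0236, 0.0230 and 0.0227 of Hsp90ab1 in 25-HC, against 0.0105, 0.0323 and 0.0105 in vehicle 1, 2 and 3. Vehicle 2 was thus above 25-HC and the other vehicle libraries below it. The log2 ratio differed by 0.60 (exact permutation test, two-sided p = 0.4, and 0.467 adjusted over the 7 ratios computed). Without vehicle 2 it differed by 1.14 (exact permutation p = 0.1, the smallest that the remaining libraries can give).

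Hspa8 encodes HSC70, the constitutive HSP70, and its introns hold small nucleolar RNAs. It was the most abundant member, at 1513, 1600 and 1512 TPM in 25-HC, against 1648, 492 and 1726 TPM in vehicle 1, 2 and 3. All 25-HC values lay below vehicle 1 and vehicle 3 and above vehicle 2. The means were 1542 ± 50.6 TPM in 25-HC and 1289 ± 691 TPM in vehicle (SD, n = 3 each), a log2 difference of 0.46 (SE 0.49, limma adjusted p = 0.524). A processed pseudogene, Gm15459, is 99.7% identical to Hspa8 over 1941 bases and was itself listed at 1411, 1428 and 1447 TPM in 25-HC, against 993, 807 and 1585 TPM in vehicle 1, 2 and 3. Reads of this pair could be split between the names. Their sum was 2924, 3029 and 2960 TPM in 25-HC and 2641, 1299 and 3311 TPM in vehicle 1, 2 and 3, which overlapped too (limma adjusted p = 0.453).

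The stress-inducible HSP70 genes Hspa1a and Hspa1b were barely detected. Hspa1a was listed at 0, 0.55 and 0.05 TPM in 25-HC, against 0.03, 0.15 and 0.11 TPM in vehicle 1, 2 and 3. Hspa1b was at 0.78, 1.34 and 1.24 TPM in 25-HC, against 1.52, 0.33 and 2.74 TPM in vehicle 1, 2 and 3. The 25-HC values of Hspa1b lay between vehicle 2 and vehicle 1 (log2 difference -0.14, SE 0.42, limma adjusted p = 0.816), and it was -0.54 without vehicle 2 and 0.20 without vehicle 3. Because the genes are near copies, their sum is the safer quantity, and it was 0.78, 1.89 and 1.29 TPM in 25-HC, against 1.55, 0.48 and 2.85 TPM in vehicle 1, 2 and 3. Relative to Hspa8, the log2 ratio of that sum was -10.9, -9.73 and -10.2 in 25-HC and -10.1, -10.0 and -9.24 in vehicle 1, 2 and 3, which overlapped (exact permutation p = 0.4).

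Among the partners of HSP70, Hsph1 encodes HSP105, a nucleotide exchange factor of the HSP110 family. It was at 36.4, 37.1 and 32.1 TPM in 25-HC, against 32.3, 5.23 and 42.7 TPM in vehicle 1, 2 and 3. The 25-HC values lay below vehicle 3 and reached down to the level of vehicle 1 (log2 difference 0.79, SE 0.74, limma adjusted p = 0.477). Dnaja1, a J-domain protein that brings clients to HSC70, was at 55.7, 59.4 and 54.9 TPM in 25-HC, against 48.1, 4.79 and 64.0 TPM in vehicle 1, 2 and 3. Again vehicle 3 was highest and vehicle 2 lowest, and no other tested member was as far below 25-HC there (log2 difference 1.12, SE 0.90, limma adjusted p = 0.438). Without vehicle 2 the difference was 0.030. Dnajb1, the stress-inducible HSP40 that loads HSP70 onto misfolded protein, was at 16.6, 17.1 and 18.9 TPM in 25-HC, against 13.7, 6.88 and 19.4 TPM in vehicle 1, 2 and 3. Its 25-HC values lay between vehicle 1 and vehicle 3 (log2 difference 0.47, SE 0.40, limma adjusted p = 0.450). Within libraries, the log2 ratio of Hsph1 to Hspa8 differed by 0.40 (exact permutation p = 0.4). The log2 ratio of Dnajb1 to Dnaja1 was -1.75, -1.80 and -1.54 in 25-HC, against -1.81, 0.52 and -1.72 in vehicle 1, 2 and 3, so vehicle 2 alone had more Dnajb1 than Dnaja1 (exact permutation p = 0.7).

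The mitochondrial chaperonin is built from HSP60, encoded by Hspd1, and its lid HSP10, encoded by Hspe1. Hspd1 was at 248, 248 and 246 TPM in 25-HC, against 170, 29.9 and 276 TPM in vehicle 1, 2 and 3. The 25-HC values lay between vehicle 1 and vehicle 3 and averaged 247 ± 1.00 TPM, against 159 ± 123 TPM in vehicle (SD, n = 3 each; log2 difference 1.13, SE 0.78, limma adjusted p = 0.405). It was 0.19 without vehicle 2. Hspe1 was at 401, 419 and 404 TPM in 25-HC, against 477, 363 and 420 TPM in vehicle 1, 2 and 3. It was the member that moved least in vehicle 2, and its 25-HC values lay between vehicle 2 and vehicle 3 (log2 difference -0.03, SE 0.18, limma adjusted p = 0.903). Hspe1 has the shortest transcript of the set, 964 bases in the longest annotated form, against 5622 bases for Dnaja1, the longest. The log2 ratio of Hspd1 to Hspe1 was -0.70, -0.76 and -0.72 in 25-HC, against -1.49, -3.60 and -0.60 in vehicle 1, 2 and 3. The ratio overlapped between the groups (difference 1.17, exact permutation p = 0.4). After length correction the difference was 0.74 (exact permutation p = 0.4).

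**Figure D2:**
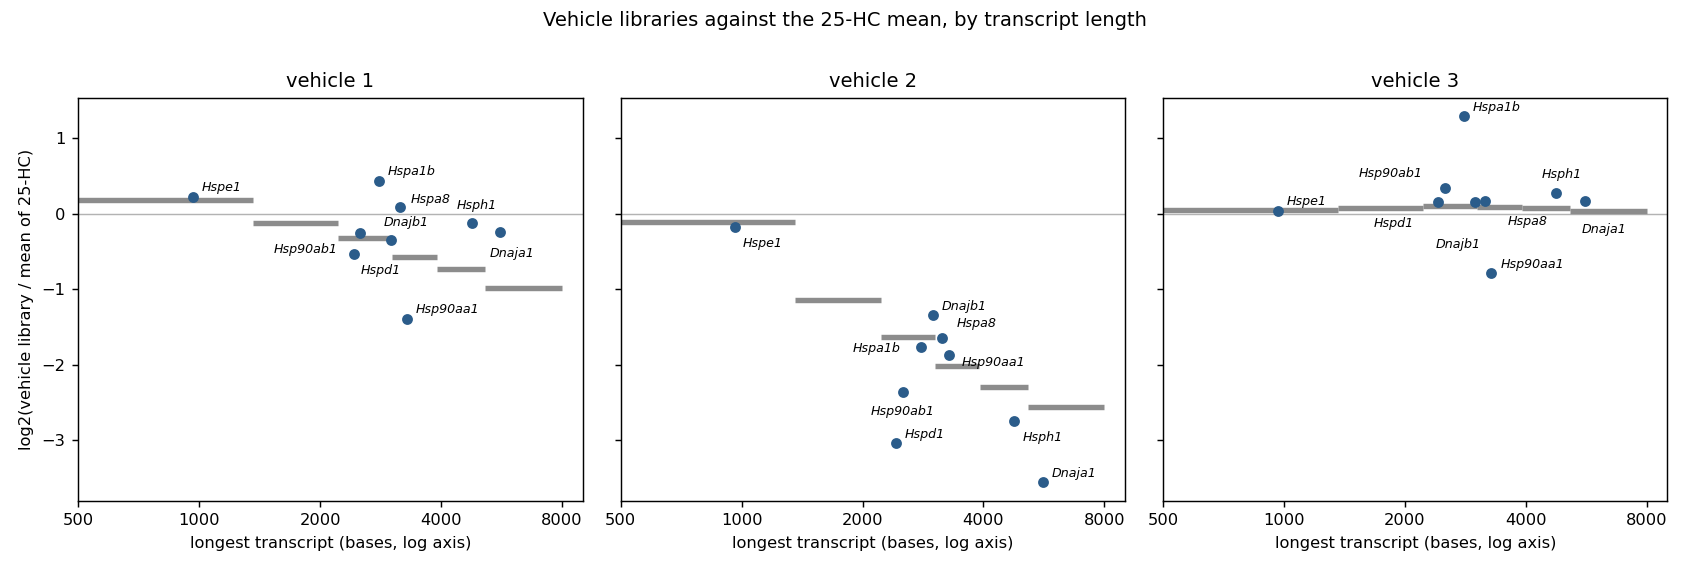
Log2 ratio of each vehicle library to the mean of 25-HC (vertical axis) against the length of the longest annotated transcript (horizontal, log axis), with points for the 9 tested chaperones and grey bars for the median of all genes in 6 length classes. In vehicle 2 the bars fall to -2.57 in the longest class and Dnaja1 lies at -3.56, while in vehicle 3 the bars stay near 0 and Hsp90aa1 lies at -0.79.

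The vehicle libraries were compared with 25-HC by transcript length because the members span short and long transcripts. In vehicle 2, the log2 ratio to the 25-HC mean was -0.17 for Hspe1, -1.35 for Dnajb1, -1.65 for Hspa8, -1.76 for Hspa1b, -1.88 for Hsp90aa1, -2.36 for Hsp90ab1, -2.75 for Hsph1, -3.05 for Hspd1 and -3.56 for Dnaja1. The median of all genes of like length was -0.10 around Hspe1, -1.64 around Hspd1, Hsp90ab1, Hspa1b and Dnajb1, and -2.01 around Hspa8 and Hsp90aa1. It was -2.30 around Hsph1 and -2.57 around Dnaja1. Hspd1, Dnaja1, Hsp90ab1 and Hsph1 thus lay below it, and Hspa8 and Dnajb1 above it. Hspe1, Hspa1b and Hsp90aa1 lay close to it. In vehicle 3, where every length class had a median between 0.039 and 0.097, the ratio was -0.79 for Hsp90aa1 and 0.35 for Hsp90ab1, and between 0.040 and 0.28 for the others apart from the scarce Hspa1b (1.29). After the trend with length was subtracted in each library, which could be done for 11132 genes, Hsp90aa1 was still apart and higher (log2 difference 0.65, limma adjusted p = 0.220). The median over the members was then 0.064, beside 0.0026 over all genes. The 1 member then apart and lower was Hspa1b (log2 difference -0.69, limma adjusted p = 0.197), against 17.1% of genes higher and 18.7% lower. After quantile normalization Hsp90aa1 was again apart and higher, against 18.6% of all genes, and Hspa1b apart and lower, against 17.3%.

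A rescaling by the median ratio over genes moved the median of all genes to 0.0085, from the 0.52 given above, and the median of the members to 0.12. On that scale Hsp90aa1 was at 19.1, 18.6 and 18.4 in 25-HC, against 9.18, 15.6 and 10.3 in vehicle 1, 2 and 3. It stayed apart, with a log2 difference of 0.67 (limma adjusted p = 0.297), and it was the 1 member of 9 higher without overlap, against 18.7% of all genes, with 0 lower, against 17.9%. Hspe1 then had a log2 difference of -0.67, and Hspa8 and Dnajb1 turned to -0.17 and -0.12, none of which passed (limma adjusted p of 0.334 or more). With vehicle 3 as the only vehicle library, all 3 libraries of 25-HC were lower for 8 of 9 members, against 45.7% of all genes. Hspe1 was among them by the very narrow margin given above. They were higher for Hsp90aa1, against 28.5% of all genes. In limma, which there assumes that the lone vehicle library varies like the 25-HC libraries, 3 of 9 members passed, against 10.9% of all genes. Those were Hsp90aa1, higher by 0.74 (limma adjusted p = 0.0247), Hsp90ab1 at -0.35 (limma adjusted p = 0.0223) and Hspd1 at -0.16 (limma adjusted p = 0.0435). This rests on a single vehicle library.

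**Figure D3:**
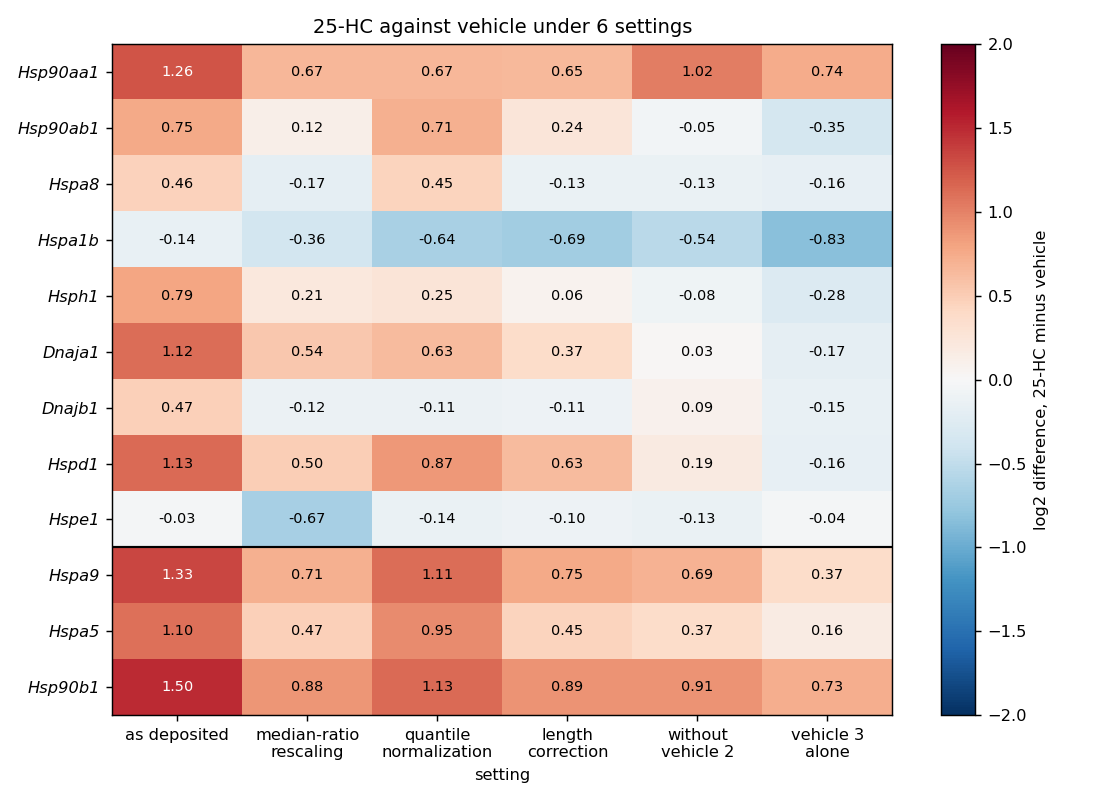
Log2 difference of 25-HC minus vehicle (colour and printed value) for the 9 tested chaperones and, below the line, Hspa9, Hspa5 and Hsp90b1 (vertical axis), under 6 scalings or choices of vehicle libraries (horizontal axis). Hsp90aa1 stays above 0 in all 6, from 0.65 after length correction to 1.26 as deposited, and so do Hspa9, Hspa5 and Hsp90b1. Hspa1b and Hspe1 stay below 0. Hsp90ab1, Hspa8, Hsph1, Dnaja1, Dnajb1 and Hspd1 lie on both sides of 0.

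The relatives of the members in other compartments gave a further comparison within libraries. Hspa5, the HSP70 of the endoplasmic reticulum known as BiP, was at 673, 676 and 666 TPM in 25-HC, against 449, 112 and 602 TPM in vehicle 1, 2 and 3. Relative to Hspa8 it stood at 0.445, 0.423 and 0.440 in 25-HC, against 0.273, 0.228 and 0.348 in vehicle 1, 2 and 3. All 25-HC ratios were above all vehicle ratios, by 0.64 on the log2 scale (exact permutation p = 0.1, the smallest that 3 against 3 can give, and 0.35 adjusted over the 7 ratios). Hsp90b1, the HSP90 of the endoplasmic reticulum known as GRP94, was at 101, 104 and 99.7 TPM in 25-HC, against 47.3, 15.1 and 61.0 TPM in vehicle 1, 2 and 3. Relative to Hsp90ab1 it stood at 0.0991, 0.103 and 0.0979 in 25-HC, against 0.0556, 0.0762 and 0.0473 in vehicle 1, 2 and 3. These ratios were also apart, by 0.78 on the log2 scale (exact permutation p = 0.1, adjusted 0.35). Both ratios stayed apart with vehicle 2 left out, at 0.50 for Hspa5 to Hspa8 and 0.97 for Hsp90b1 to Hsp90ab1. With Gm15459 added to Hspa8, the ratio of Hspa5 stayed apart too, at 0.71. With all libraries kept, the 5 ratios within the set overlapped. Without vehicle 2, the ratio of Hsp90aa1 to Hsp90ab1 was apart too, by 1.14 on the log2 scale, and the others within the set still overlapped.

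**Figure D4:**
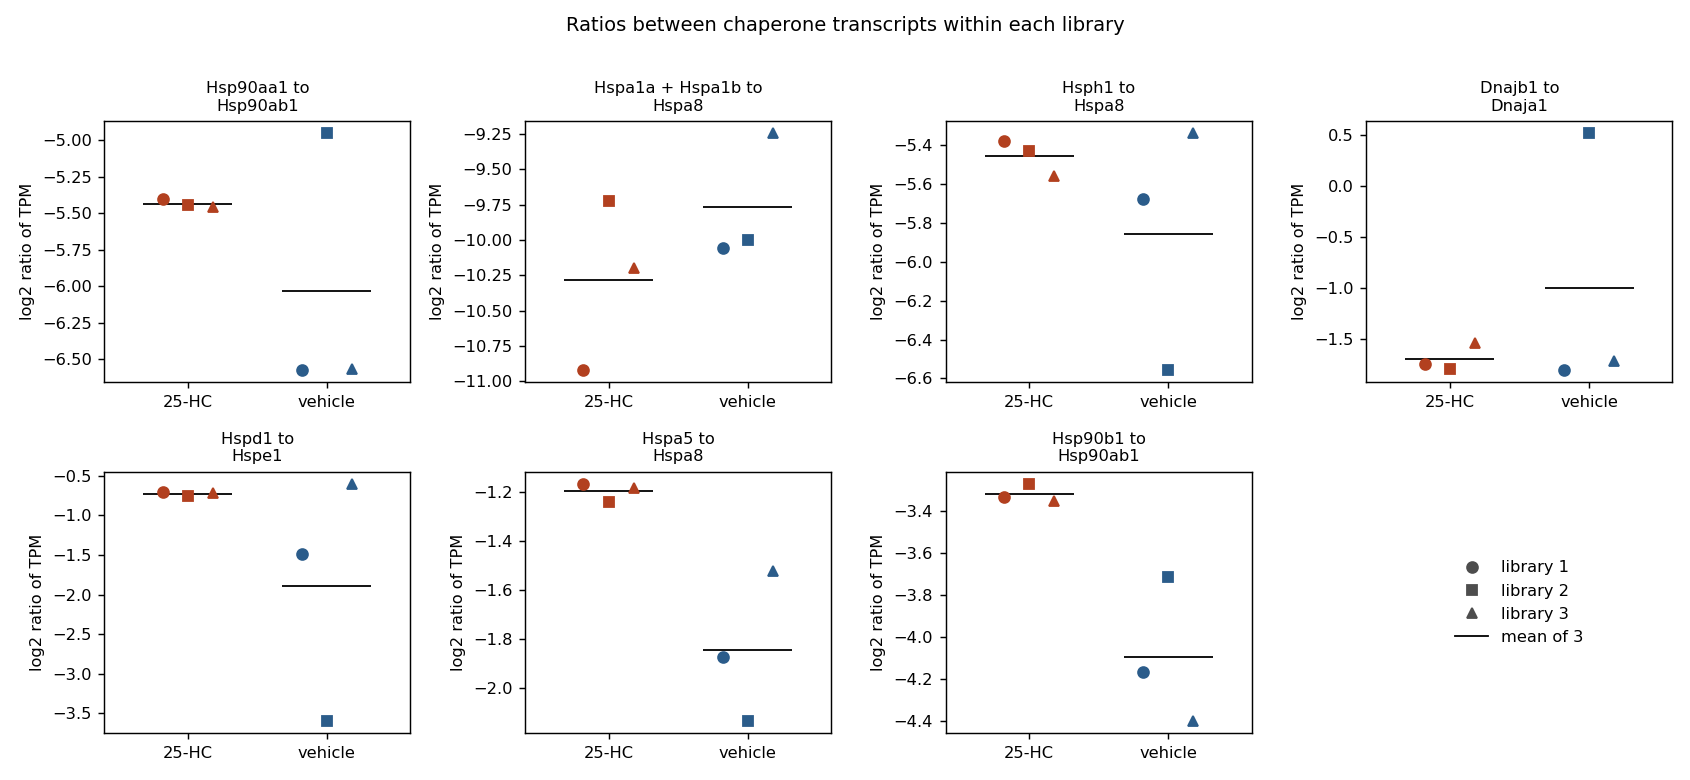
Log2 ratio of the TPM of 2 chaperone genes within each library (vertical axis), 1 panel per ratio, with 3 libraries of 25-HC and 3 of vehicle and a bar at each group's mean. The groups are apart for Hspa5 to Hspa8 and for Hsp90b1 to Hsp90ab1 and overlap for the 5 other ratios.

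Hsf1, the factor that switches on heat shock genes, was at 32.0, 33.2 and 33.1 TPM in 25-HC, against 31.0, 9.15 and 34.1 TPM in vehicle 1, 2 and 3, with overlap (log2 difference 0.59, limma adjusted p = 0.456). Of 4 listed HSF factors and regulators, 3 were tested and 0 passed. Hsf2, a second HSF, was at 4.22, 4.48 and 4.88 TPM in 25-HC, against 2.33, 0.35 and 3.85 TPM in vehicle 1, 2 and 3, apart as deposited and after both corrections (log2 difference 0.98, SE 0.50, limma adjusted p = 0.389). No gene of the other lists passed either: 0 of 6 tested of 12 other cytosolic HSP70, HSP110 and small heat shock genes, 0 of 10 tested of 11 other J-domain genes, 0 of 20 co-chaperones, 0 of 14 TRiC and prefoldin genes, 0 of 12 other mitochondrial genes and 0 of 16 chaperones of the endoplasmic reticulum. Their median log2 differences ran from 0.35 to 0.73, beside 0.52 for all genes. Apart and higher were 0 of the 6 HSP70 and small heat shock genes, 1 of 10 J-domain genes, 1 of 20 co-chaperones and 0 of 14 TRiC and prefoldin genes. Apart and lower were 0, 0, 1 and 2 in the same order, where all genes had 22.6% higher and 8.1% lower. After median-ratio rescaling, 0 were higher in each of these lists and 1, 0, 5 and 5 were lower, where all genes had 18.7% and 17.9%.

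Single genes of those lists went different ways. Bag1, a co-chaperone that releases nucleotide from HSP70, was at 104, 108 and 98.8 TPM in 25-HC, against 162, 290 and 123 TPM in vehicle 1, 2 and 3. It was lower in every 25-HC library as deposited, after median-ratio rescaling and after length correction, with a log2 difference of -0.79 as deposited (SE 0.34, limma adjusted p = 0.389) and -1.0 after length correction. Pfdn1, a subunit of prefoldin, which hands nascent actin and tubulin to the TRiC chaperonin, was at 97.4, 95.4 and 97.9 TPM in 25-HC, against 147, 205 and 109 TPM in vehicle 1, 2 and 3 (log2 difference -0.61, limma adjusted p = 0.389). It was apart on the same 3 scales, at -0.73 after length correction. Both genes have short transcripts, of 1348 and 1109 bases, and were highest in vehicle 2. Hspa14, an HSP70 bound to ribosomes, was at 65.0, 66.3 and 69.1 TPM in 25-HC, against 53.7, 9.22 and 80.1 TPM in vehicle 1, 2 and 3 (log2 difference 0.93, limma adjusted p = 0.439). Its J-domain partner Dnajc2 was at 13.4, 12.6 and 12.0 TPM in 25-HC, against 10.5, 7.40 and 9.63 TPM in vehicle 1, 2 and 3 (log2 difference 0.44, limma adjusted p = 0.394). Dnajc2 was apart as deposited and overlapped after rescaling.

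In the mitochondrial matrix, Hspa9 (mortalin) pulls proteins through the import channel and passes them to the chaperonin. It was at 225, 227 and 235 TPM in 25-HC, against 113, 36.6 and 177 TPM in vehicle 1, 2 and 3. The groups were apart as deposited and after both corrections, with a log2 difference of 1.33 (SE 0.56, limma adjusted p = 0.389). Unlike Hspd1, it was above vehicle 3 in 25-HC, at 1.30-fold. Of the 12 other mitochondrial genes, 4 were apart and higher and 0 were apart and lower, where all genes had 22.6% and 8.1%. Among 16 chaperones of the endoplasmic reticulum, 9 were apart and higher, among them Hspa5 (log2 difference 1.10, limma adjusted p = 0.389) and Hsp90b1 (log2 difference 1.50, limma adjusted p = 0.389), and 1, Sil1, was apart and lower. After median-ratio rescaling, 7 of the 16 were apart and higher and 3 apart and lower, where all genes had 18.7% and 17.9%. Length correction gave 8 and 3, where all genes had 17.1% and 18.7%. Of the 12 other mitochondrial genes, 3 were then higher and 1 lower on both scales. Against vehicle 3 alone, which is a single library, the log2 difference was 0.37 for Hspa9, 0.16 for Hspa5 and 0.73 for Hsp90b1. The difference between these lists and the 10 chaperones was not tested.

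Across the 6 libraries the members mostly followed 1 profile, low in vehicle 2 and highest in vehicle 3. The Pearson correlation of each member with the mean of the standardized profiles, a description over 6 libraries that share their totals, was 0.997 for Dnaja1, 0.996 for Hsph1 and Hsp90ab1, 0.994 for Hspa8, 0.990 for Hspd1, 0.971 for Dnajb1 and 0.794 for Hspa1b. It was 0.703 for Hsp90aa1, which was highest in 25-HC, and 0.677 for Hspe1. Each member is itself part of that mean, which raises its correlation, and the genes named next are not. Of 6412 other genes at 10 TPM or more, 39.7% had a correlation over 0.95 with that mean profile. The most alike were Agap3, Snw1, Cxcr3, Kif2c and Mrps27, each at 0.999 or more. Agap3, for instance, was at 47.3, 52.0 and 49.6 TPM in 25-HC, against 44.7, 9.88 and 59.6 TPM in vehicle 1, 2 and 3.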

How the data were processed

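The authors deposited TPM values of all genes in a single table. RSEM, StringTie, HISAT2 and the build GRCm39 are named in the submitters' processing notes, and the annotation, the strand and all versions were not given in the sources used here. TPM divides by transcript length and library total, so a gene that takes a large share lowers the others. Groups came from the sample titles, 2623 genes without a symbol kept their identifier, and 11 empty columns were ignored. limma 3.58.1 (R 4.3.3) compared log2(TPM + 1), two-sided and with a mean-variance trend, for the 12092 genes averaging 1 TPM or more, and p-values were adjusted by the Benjamini-Hochberg method over all of them. This scale understates changes of low genes, and folds are ratios of mean TPM. Ratios within libraries used exact permutation tests. Tables were handled in Python 3.11.15 with pandas 2.3.3 and numpy 2.4.6, and the scripts were tested on simulated data.

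Length correction subtracted a loess trend (span 0.75, degree 2) on the longest transcript of GENCODE M21, which 92.1% of tested genes had. A near-identical copy was a transcript of at least 95% blastn identity over at least 200 bases and a mean of at least 1 TPM. Copies of Hspe1 were left out of this step, so its values and the ratio of Hspd1 to Hspe1 take no account of any. The sum with the copy of Hspa8 was chosen after seeing the data, and some items are not reported here. The members and the gene lists were chosen with earlier results of these data known. The text names all members, Hsf1, Hspa9, Hspa5 and Hsp90b1, from each list the called genes or else that of smallest p, and the 5 genes at 10 TPM or more most correlated with the mean profile. Sil1 and Gm15459 were named after their values were seen.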

Additional observations from a re-analysis of the deposited data

How the results depend on the processing

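Of 19 alternatives, 18 were planned and 1, adding the near-identical copy of Hspa8, was chosen after seeing the data. The count of all genes called (1) was 0 with a pseudocount of 5, no filter on low values, a mean of at least 5 TPM or a replicate block, 2 after median-ratio rescaling, 5 after quantile normalization, 19 after length correction and 1312 against vehicle 3 alone. Leaving out single libraries gave 0 to 722, the most without vehicle 3 and 13 without vehicle 2. The count of members called (0) was 3 against vehicle 3 alone, and 0 to 1 with single libraries left out. Members apart (1) became 2 after quantile normalization or length correction and 9 against vehicle 3 alone, and ran from 1 to 5 with single libraries left out (4 without vehicle 2, of which 3 lower, and 5 without vehicle 3, all higher). The labels do not say whether the numbers shared by the groups pair the libraries. Deviations from the group means had correlations of -0.013, 0.056 and 0.030 between same-numbered libraries. These values cannot decide it, because the 25-HC libraries varied little. The replicate block gave Hsp90aa1 a limma adjusted p of 0.415, and the paired exact test of the ratio of Hspa5 to Hspa8 gave p = 0.25, the smallest it can give.

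Against vehicle 3 alone these log2 differences turned: Hsp90ab1 -0.35, Hspa8 -0.16, Hsph1 -0.28, Hspd1 -0.16, Dnaja1 -0.17, Dnajb1 -0.15, Hspa14 -0.26, Hsf1 -0.056, the ratio of Hsph1 to Hspa8 -0.12, of Dnajb1 to Dnaja1 0.022 and of Hspd1 to Hspe1 -0.12. Median-ratio rescaling turned Hspa8 (-0.17), Dnajb1 (-0.12), Dnajc2 (-0.15) and Hsf1 (-0.016), quantile normalization Dnajb1 (-0.11) and Dnajc2 (-0.17), and length correction Hspa8 (-0.13), Dnajb1 (-0.11), Dnajc2 (-0.23) and Hsf1 (-0.0069). With single libraries left out, differences ran from -0.048 to 1.30 for Hsp90ab1, -0.13 to 0.77 for Hspa8, -0.54 to 0.20 for Hspa1b, -0.079 to 1.33 for Hsph1, 0.030 to 1.77 for Dnaja1, 0.19 to 1.77 for Hspd1, -0.13 to 0.065 for Hspe1 and -1.10 to 0.067 for the ratio of Dnajb1 to Dnaja1. The cause of these turns was not tested. Hsp90aa1 kept its direction in all 19, and so did Bag1, Pfdn1, Hspa9, Hspa5 and Hsp90b1. Hsf2 kept its direction in the 18 that tested it. Depth is unknown, and 3 libraries per group, with vehicle 2 and to a lesser degree vehicle 1 apart from the others, limit what these data can show.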
